A study of Rattus norvegicus with 8 samples.

Results

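The miR-99/100 and miR-125 families were followed through the 5p arms of 5 miRNAs, rno-miR-99a-5p, rno-miR-99b-5p, rno-miR-100-5p, rno-miR-125a-5p and rno-miR-125b-5p (the prefix for rat is left out from here on), which were picked by name from the 758 rat miRNAs on the array. The UVD group consisted of male Sprague–Dawley rats, 7 weeks old, whose left labyrinth was opened and treated with ethanol, which removes vestibular nerve input on that side (unilateral vestibular deafferentation), and it was sampled at 4 d and at 4 h after surgery. The SO group consisted of rats of the same strain, sex and age that had a sham operation on the left without opening of the vestibule or ethanol, and it was sampled at the same timepoints. The left medial vestibular nucleus (MVN), the brainstem nucleus that receives vestibular nerve fibers, was dissected by hand, and the nuclei of 3 rats were pooled for each array, with 2 arrays per group and 8 in all. The p-values therefore measure the spread between pools of animals.

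miR-125 is the vertebrate counterpart of lin-4, the miRNA that times larval development in the nematode, and miR-99 and miR-100 belong to one of the oldest miRNA families of animals. In vertebrates both families are encoded together with let-7 in clusters that can be transcribed together. In mammalian cells, mTOR and the insulin-like growth factor 1 receptor are known targets of the miR-99/100 family, and miR-125b is abundant in brain and has been studied at synapses and in neuronal differentiation.

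In the RefSeq annotation of the rat assembly GRCr8, Mir99a neighbored Mirlet7c1 and Mir125b2 inside the long noncoding RNA LOC103693508. Mir100 neighbored Mirlet7a-2 and Mir125b1, and Mir99b neighbored Mirlet7e and Mir125a inside the gene Spaca6. Because miR-125b-5p is made from both Mir125b1 and Mir125b2, its signal cannot be assigned to either cluster. Likewise let-7a-5p and let-7c-5p are also made from Mirlet7a1 on chromosome 17 and Mirlet7c2 on chromosome 7, outside these clusters, while let-7e-5p was listed for Mirlet7e alone. Mature sequences were found for 4 of the 5 members among the 693 mature miRNAs of the RefSeq table, and they are shown with those of the let-7 partners of the clusters and of the related miR-10a-5p, with the seed (bases 2 to 8) in capitals, because the seed sets the family and the remaining bases are what a probe has to tell apart.
miR-99b-5p: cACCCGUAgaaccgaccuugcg
miR-100-5p: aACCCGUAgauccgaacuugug
miR-125a-5p: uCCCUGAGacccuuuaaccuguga
miR-125b-5p: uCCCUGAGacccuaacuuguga
let-7a-5p: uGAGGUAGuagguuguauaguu
let-7c-5p: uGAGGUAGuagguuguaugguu
let-7e-5p: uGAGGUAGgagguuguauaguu
miR-10a-5p: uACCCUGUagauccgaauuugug

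miR-99b-5p and miR-100-5p shared the seed ACCCGUA and 18 of 22 bases, and differed by C1A, A11U, C16A and C21U, with positions counted from the 5′ end and the base of miR-99b-5p first. miR-125a-5p and miR-125b-5p shared the seed CCCUGAG and, compared without gaps from the 5′ end, 15 of the first 22 bases. miR-351-5p also carried this seed, so that 3 mature rat miRNAs in the table held it. Cross-hybridization between probes of such similar sequences was not tested.

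The arrays use 1 dye, and the scanner software adds up the spots of a miRNA, less their background, as its total gene signal. These signals were brought to 1 common set of values on all arrays (quantile normalization), and limma was run on the log2 values of the 422 miRNAs that both arrays of some group detected. Between 378 and 430 miRNAs were detected per array, and no spot was saturated. All arrays lay on 1 slide, with the UVD group in row 2 and the SO group in row 1, and 4 d and 4 h in separate columns, so slide position and group cannot be told apart. Of the 30 marker miRNAs in 7 lists, 29 were detected on every array, and the remaining 1 belongs to the 6 of the choroid plexus and ependyma list. The neuron and oligodendrocyte lists were thus complete, and so were the microglia and leukocyte, erythroid, vessel and muscle lists. In pooled tissue, fewer cells of a type and less RNA per cell cannot be told apart.

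All 5 were detected on all 8 arrays, and the highest normalized intensity of a member exceeded its lowest by 1.16-fold (miR-125a-5p and miR-99a-5p) to 1.29-fold (miR-125b-5p). The median range over the 8 arrays was 0.33 on the log2 scale for the members. It was 0.42 for the 377 tested miRNAs detected on all 8 arrays and 0.47 for all miRNAs tested. The median SD within groups was 0.08, 0.11 and 0.12 in the same order. The members ranked 2 to 91 of 758 in total gene signal, and the miRNAs set beside them were not matched for signal. The part of signal level in the smaller spread was not tested. Limma called 0 of 5 members in each of the 6 comparisons at an adjusted p of 0.05, beside 0 to 7 of all 422 tested. Of the 30 values of members, 0 had an unadjusted p under 0.05, beside 16 to 100 of the 422 miRNAs per comparison.

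**Figure D1:**
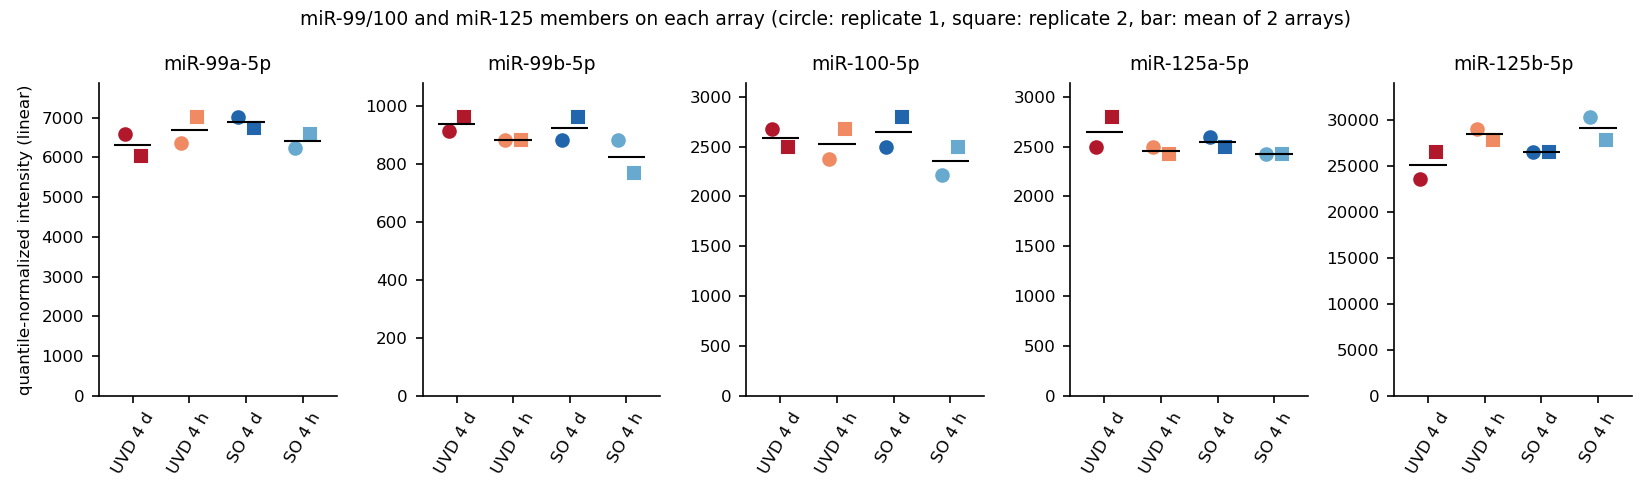
Normalized intensity of the 5 members (vertical axes, linear, from 0) on each array, in the UVD group at 4 d and 4 h and the SO group at 4 d and 4 h. Circles are replicate 1, squares are replicate 2 and bars are means of 2 arrays; every panel is nearly flat, with a highest over lowest value of at most 1.29-fold.

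miR-99a-5p had normalized intensity values of 6578 and 6045 in the UVD group at 4 d and 6360.4 and 7029 in the UVD group at 4 h. In the SO group the values were 7029 and 6745 at 4 d and 6228 and 6578 at 4 h. The UVD arrays at 4 d lay below both SO arrays of that timepoint, and both SO arrays at 4 d lay above those at 4 h, while the other groups overlapped. The means were 6312 ± 377 for UVD at 4 d, 6694 ± 472 for UVD at 4 h, 6887 ± 201 for SO at 4 d and 6403 ± 248 for SO at 4 h (SD, n = 2 arrays).

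miR-100-5p, the miRNA encoded beside let-7a-2, had 2675 and 2495 in UVD at 4 d and 2370.1 and 2675 in UVD at 4 h. In the SO group it had 2495 and 2801 at 4 d and 2212 and 2495 at 4 h. No pair of groups separated, with means of 2585 ± 128 for UVD at 4 d, 2523 ± 216 for UVD at 4 h, 2648 ± 217 for SO at 4 d and 2353 ± 200.2 for SO at 4 h (SD, n = 2 arrays).

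miR-99b-5p, the member of this family encoded beside let-7e, had 912 and 962 in UVD at 4 d and 879.8 on both UVD arrays at 4 h. In the SO group it had 879.8 and 962 at 4 d and 879.8 and 768 at 4 h. Equal values on several arrays arise because quantile normalization gives the same value to the same rank, and miR-99b-5p took 4 distinct values on 8 arrays. The UVD arrays at 4 d lay above those at 4 h, and the SO arrays of the timepoints shared the value 879.8. Means were 937 ± 35.9 and 879.8 ± 0 in UVD at 4 d and 4 h, and 921 ± 58.3 and 824 ± 79.4 in SO at 4 d and 4 h (SD, n = 2 arrays).

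miR-125a-5p, from the same cluster as miR-99b-5p, had 2495 and 2801 in UVD at 4 d and 2495 and 2422 in UVD at 4 h. In the SO group it had 2594 and 2495 at 4 d and 2422 on both arrays at 4 h. Only the SO arrays separated by timepoint, with a mean of 2544 ± 69.99 at 4 d and 2422 ± 0 at 4 h (SD, n = 2 arrays).

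miR-125b-5p, the product of both Mir125b genes, stood at 23574 and 26530.4 in UVD at 4 d and at 29054 and 27832 in UVD at 4 h. In the SO group it had 26530.4 on both arrays at 4 d, and 30366 and 27832 at 4 h. All 4 arrays at 4 d lay below all 4 arrays at 4 h in these normalized values. How many of all miRNAs tested separate likewise was not computed, and the sign of the time changes depended on the scaling, as given below. The means were 25052 ± 2090.3 for UVD at 4 d and 28443 ± 864 for UVD at 4 h. In SO they were 26530.4 ± 0 at 4 d and 29099 ± 1792 at 4 h (SD, n = 2 arrays). Replicate 1 of UVD at 4 d, which had the lowest normalized value, had the highest total gene signal of this miRNA before normalization (31184, against 23989.5 on replicate 1 of UVD at 4 h, the lowest). That array had the highest summed signal of all miRNAs (789972) and the highest unnormalized signal of all 5 members.

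The order of the group means differed between members. Mean miR-99b-5p and miR-125a-5p ran from UVD at 4 d, the highest, through SO at 4 d and UVD at 4 h to SO at 4 h. Mean miR-100-5p was highest in SO at 4 d and lowest in SO at 4 h, mean miR-99a-5p was highest in SO at 4 d and lowest in UVD at 4 d, and mean miR-125b-5p ran from SO at 4 h, the highest, through UVD at 4 h and SO at 4 d to UVD at 4 d. Among all neighbors in these orders, the arrays separated only between UVD at 4 h and SO at 4 d for miR-125b-5p.

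To identify an effect of the deafferentation 4 h after surgery, the UVD group was compared with the SO group at that timepoint. Of the 5 members, 0 were called, beside 0.474% of all miRNAs tested, and 0 of 5 had arrays that did not overlap between the groups, beside 50.9% of all. The log2 fold changes, UVD over SO, were 0.06 for miR-99a-5p, 0.10 for miR-99b-5p, 0.10 for miR-100-5p, 0.02 for miR-125a-5p and -0.03 for miR-125b-5p. The members' median was 0.06, beside -0.01 over all miRNAs tested. The widest interval was that of miR-100-5p, from -0.17 to 0.37 on the log2 scale (95% interval, limma, adjusted p = 0.666).

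At the later timepoint, 4 d, 0 of 5 members were called in the UVD group against the SO group, beside 0% of all miRNAs tested. The arrays did not overlap for 1 of 5 members, miR-99a-5p, beside 29.4% of all. Its log2 fold change was -0.13 with an SE of 0.08 and a 95% interval from -0.33 to 0.08 (limma, adjusted p = 0.759); it was 0.13 with no scaling between arrays, where the median of all miRNAs tested was 0.16. The other log2 fold changes were 0.03 for miR-99b-5p, -0.03 for miR-100-5p, 0.06 for miR-125a-5p and -0.09 for miR-125b-5p, each smaller than or close to its SE of 0.07 to 0.11. Averaged over both timepoints the log2 fold changes of UVD over SO lay between -0.06 and 0.06, and 0 of 5 were called, beside 0% of all.

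To follow the members through compensation, 4 d was compared with 4 h within the UVD group. Of the 5 members, 0 were called, beside 0% of all miRNAs tested, and 2 of 5 had arrays that did not overlap, miR-99b-5p and miR-125b-5p, beside 44.3% of all. miR-125b-5p had a log2 fold change of -0.19 with an SE of 0.08 and a 95% interval from -0.39 to 0.02 (limma, adjusted p = 0.326), which was the smallest adjusted p of any member in any comparison. Its sign turned with no scaling between arrays (0.20), where the median of all miRNAs tested stood at 0.26. Relative to that median, miR-125b-5p lay between -0.18 and -0.06 under all 7 scalings tried. The other log2 fold changes were -0.08 for miR-99a-5p, 0.09 for miR-99b-5p, 0.04 for miR-100-5p and 0.10 for miR-125a-5p. Among the cell type markers, all 6 miRNAs of the choroid plexus and ependyma list had log2 fold changes above 0 (median 0.59). The largest was 2.17 for miR-1298, which had 48.9 and 125 on the UVD arrays at 4 d. All 5 of the microglia and leukocyte list (median 0.61) and all 3 erythroid miRNAs (0.32) were also above 0. All 3 oligodendrocyte miRNAs were below 0 (median -0.10). The neuron list had 2 above and 2 below 0, and the vessel and muscle lists each had 1 above and 3 below. Limma called 0 of any list. The summed normalized intensity of the choroid plexus and ependyma list was 7373 to 9156 in UVD at 4 d and 5907 to 6039 in UVD at 4 h, and 6105.5 to 6420 in SO at 4 d and 5195 to 5378 in SO at 4 h. That of the microglia and leukocyte list was 3853 to 4137 in UVD at 4 d and 3444 to 3497 in UVD at 4 h, and 3665 to 3824 in SO at 4 d and 3161 to 3178 in SO at 4 h. Within SO, 4 miRNAs of the choroid plexus and ependyma list were higher at 4 d and 2 lower, among them miR-1298 (-0.77). Limma called 1 of these 6 in SO, miR-34c-5p (0.64, adjusted p = 0.0386). Of the microglia and leukocyte list, 4 were higher and 1 lower in SO, and 0 were called. The part of these tissues in the members' values was not tested.

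The same timepoints were compared within the SO group. Of the 5 members, 0 were called, beside 1.66% of all miRNAs tested, and 3 of 5 had arrays that did not overlap, miR-99a-5p, miR-125a-5p and miR-125b-5p, beside 54.3% of all. The log2 fold changes, 4 d over 4 h, were 0.11 for miR-99a-5p, 0.16 for miR-99b-5p, 0.17 for miR-100-5p, 0.07 for miR-125a-5p and -0.13 for miR-125b-5p, with adjusted p between 0.342 and 0.614 (limma). That of miR-125b-5p was 0.11 to 0.22 after scaling by a 75th percentile or a median, and relative to the median of all miRNAs it lay between -0.15 and 0.02 over the 7 scalings.

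The test of the difference between the time changes of the UVD and SO groups called 0 of 5 members, beside 0.237% of all miRNAs tested. The difference, UVD minus SO, was -0.19 for miR-99a-5p (95% interval from -0.48 to 0.10, limma, adjusted p = 0.590), and between -0.13 and 0.03 for the other members. With no scaling between arrays the difference of miR-99a-5p was 0.18, where the median of all miRNAs tested was 0.31. Over the 4 comparisons of a pair of groups, the 95% intervals of the 5 members lay between -0.39 and 0.44 on the log2 scale. Changes of a member to below 0.761 or above 1.36 of the level in the group compared lay outside all 20 intervals. These intervals hold under quantile normalization only and do not bound the changes under other scalings. Scaled by the 75th percentile of all miRNAs, miR-99b-5p at 4 d over 4 h in SO was 0.37, where the median of all was 0.20. The comparisons share groups, so they are not independent of each other.

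**Figure D2:**
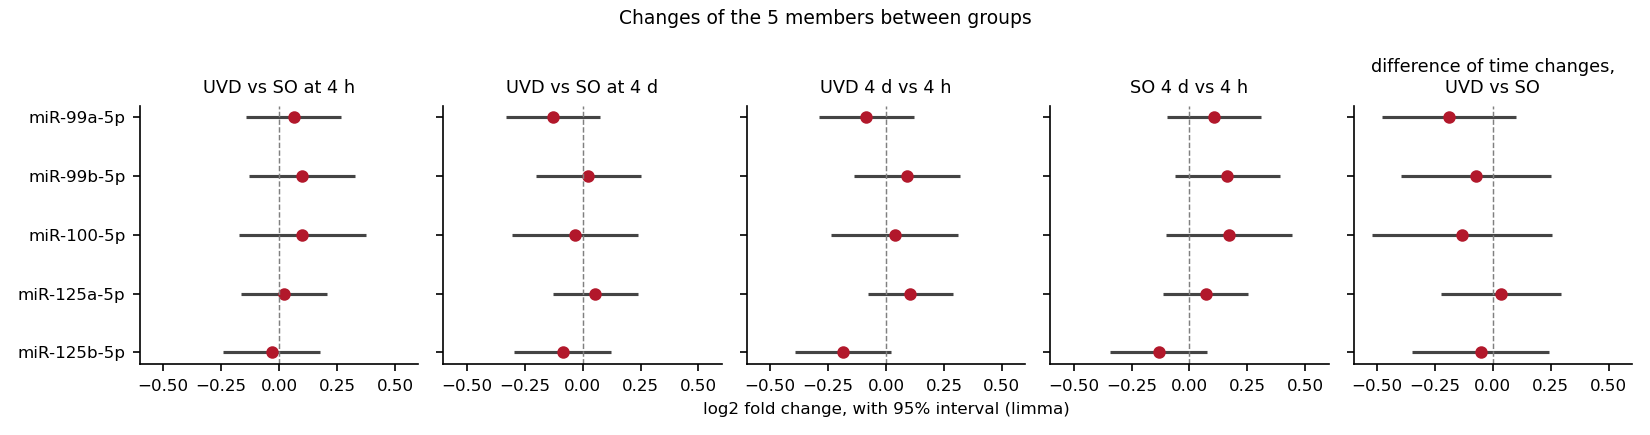
Log2 fold changes of the 5 members (points) with 95% intervals from limma (lines) in the comparisons of UVD with SO at 4 h and 4 d, of 4 d with 4 h within each group, and of the time changes between groups. Every interval crosses 0 (dashed), and the point farthest from 0 is miR-99a-5p at -0.19 in the difference of time changes.

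Each member was measured by 2 probe designs with 8 spots each, which were compared after scaling each array by the 75th percentile of the miRNAs detected on all arrays. The log2 fold changes of both designs had the same sign in 4 of 4 comparisons for miR-99a-5p, miR-99b-5p, miR-100-5p and miR-125b-5p and in 3 of 4 for miR-125a-5p, and they differed by at most 0.11. The SD over the 8 arrays of the log2 ratio between both designs was 0.04 for miR-100-5p and miR-125a-5p, 0.05 for miR-99a-5p, 0.06 for miR-125b-5p and 0.07 for miR-99b-5p. The designs share each array's RNA, so this agreement bears on the probes and not on the animals. Under this scaling the changes of UVD over SO at 4 h ranged from 0.13 to 0.29 over all 10 probes, where the median of all miRNAs tested was 0.12.

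**Figure D3:**
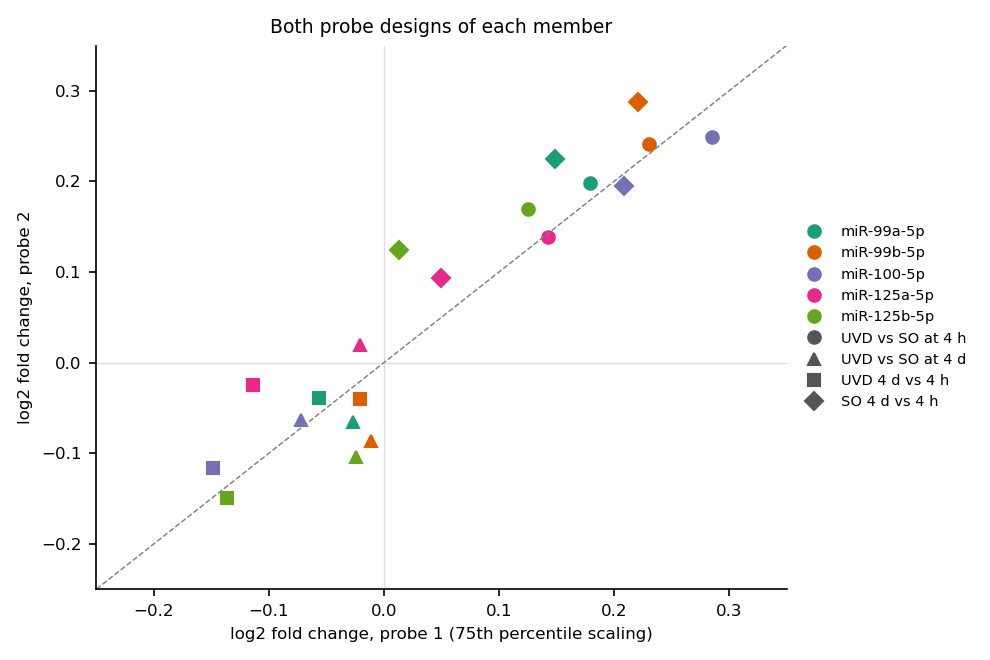
Log2 fold changes of each member by its first probe design (horizontal) and its second (vertical) in 4 comparisons, after 75th percentile scaling. Colors mark the members and shapes the comparisons; the points lie near the dashed line of equality, with gaps of at most 0.11.

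Because the members share clusters with let-7, they were also set against these let-7 miRNAs and against each other on the same array, where a factor common to the whole array cancels. Since let-7a-5p, let-7c-5p and miR-125b-5p have genes in more than 1 place, these ratios do not compare single clusters. The ratios use total gene signals without normalization, and only their changes between arrays are read, not their levels. For miR-125b-5p over let-7c-5p, the log2 ratio was -0.44 and -0.34 in UVD at 4 d and -0.14 and -0.15 in UVD at 4 h. In the SO group it was -0.23 on both arrays at 4 d, and 0.07 and -0.11 at 4 h. The 4 groups did not overlap and lay in the order UVD 4 d, SO 4 d, UVD 4 h and SO 4 h, the lowest first. How often the groups separate in ratios of other miRNAs was not computed.

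Over both operations, the ratio of miR-125b-5p to let-7c-5p differed by -0.23 on the log2 scale between 4 d and 4 h (mean -0.31 ± 0.10 at 4 d and -0.08 ± 0.10 at 4 h, SD, n = 4 arrays each, exact permutation p = 0.0286, two-sided). The difference was -0.25 within the UVD group and -0.21 within the SO group. The ratio of miR-125b-5p to let-7a-5p differed by -0.23 (mean -0.16 ± 0.10 at 4 d and 0.08 ± 0.10 at 4 h, n = 4 each, exact permutation p = 0.0286), and that of miR-100-5p to let-7a-5p by -0.18 (mean -3.55 ± 0.10 at 4 d and -3.38 ± 0.02 at 4 h, n = 4 each, exact permutation p = 0.0286). miR-99a-5p over miR-125b-5p differed by 0.10 (mean -1.98 ± 0.06 at 4 d and -2.07 ± 0.05 at 4 h, n = 4 each, exact permutation p = 0.0286). In all 4 ratios the arrays at 4 d and 4 h did not overlap. The share of ratios of other miRNAs that separate likewise was not computed. In normalized values of single miRNAs, 44.3% of all tested did not overlap between the timepoints in UVD and 54.3% in SO. These shares set 2 arrays against 2, where separation comes more easily than with 4 against 4, so they are not a background for these ratios.

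The arrays differ by operation as well as by timepoint, so the ratios were also permuted within the UVD and SO groups. All 4 ratios, and miR-99a-5p over let-7c-5p with a difference of -0.13, then had p = 0.0556, the smallest that this exact permutation test can give. The p of 0.0286 is the smallest that 4 arrays against 4 can give when permuted freely, and after Benjamini-Hochberg adjustment over the 18 tests of 9 ratios, 0 passed (smallest adjusted p = 0.129). The ratios share miRNAs, 3 of these 4 holding miR-125b-5p, so they are not separate observations. Leaving out any 1 array kept the difference of miR-125b-5p over let-7c-5p between -0.26 and -0.18, and the 4 pairings of probe designs gave -0.28 to -0.21. In the cluster of miR-99b and miR-125a, the time differences were 0.07 for miR-99b-5p over let-7e-5p, -0.03 for miR-125a-5p over let-7e-5p and 0.10 for miR-99b-5p over miR-125a-5p, with exact permutation p of 0.429, 0.714 and 0.114 (n = 4 each).

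UVD differed from SO over both timepoints by -0.15 in the log2 ratio of miR-125b-5p to let-7c-5p (mean -0.27 ± 0.15 in UVD and -0.12 ± 0.14 in SO, n = 4 each, exact permutation p = 0.229). Within the timepoints the difference was -0.16 at 4 d and -0.13 at 4 h. miR-125b-5p over let-7a-5p differed by -0.15 (p = 0.229, exact permutation test) and miR-99a-5p over let-7c-5p by -0.11 (p = 0.114, exact permutation test). These permutations mix the timepoints, between which the ratios also differed. Permuted within timepoints, the 3 ratios and that of miR-100-5p to let-7a-5p (difference -0.09) each had p = 0.0556 (exact permutation test), again the smallest possible, and in each of these 4 ratios the UVD arrays lay below the SO arrays at 4 d and at 4 h. Again no share was computed for ratios of other miRNAs. In normalized values of single miRNAs, 29.4% of all tested did not overlap between UVD and SO at 4 d and 50.9% at 4 h. Of the 18 tests permuted within groups or timepoints, 0 passed after adjustment (smallest adjusted p = 0.111). The differences at a single timepoint are given without a test. Timepoint coincides with the slide column and operation with the slide row, and the marker sums given above differ between the timepoints too; the part of these in the ratios was not tested.

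**Figure D4:**
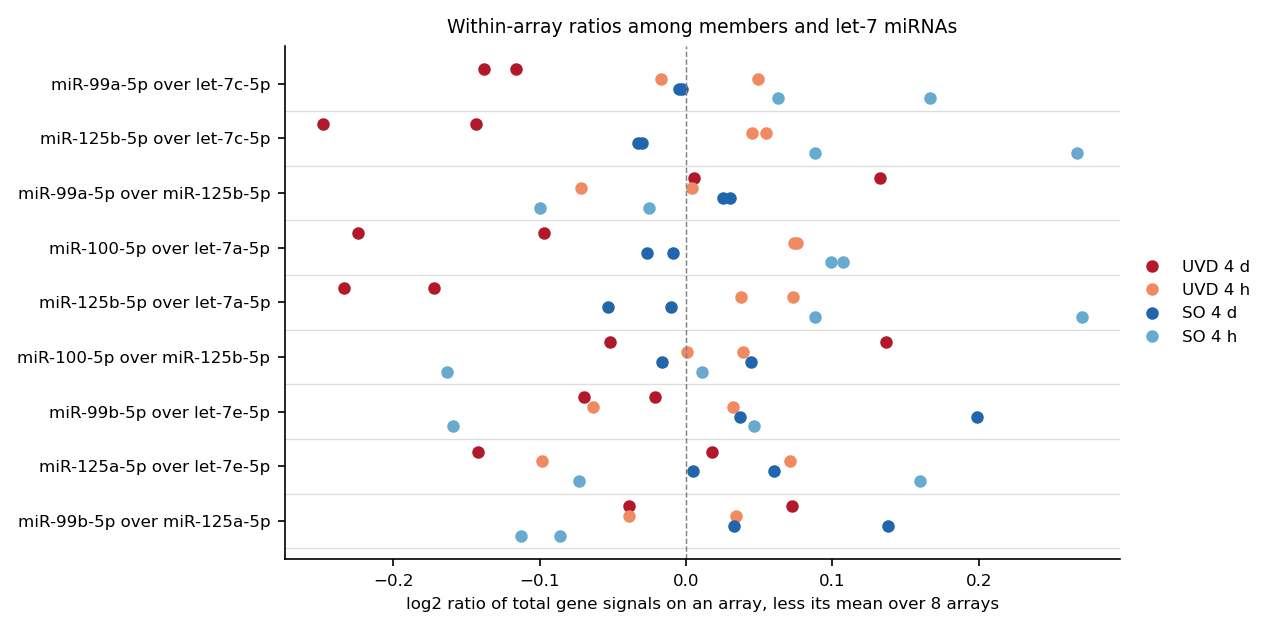
Log2 ratio of total gene signals between members, or between a member and a let-7 miRNA, on each array (horizontal axis), less the mean of that ratio over the 8 arrays, with a row per ratio and colors for the groups. In the rows of miR-125b-5p over let-7c-5p, miR-125b-5p over let-7a-5p and miR-100-5p over let-7a-5p, the arrays at 4 d lie left of those at 4 h, with the UVD arrays at 4 d farthest left.

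The let-7 partners themselves were not called in any comparison. let-7c-5p had 33707 on both arrays of UVD at 4 d and 30366 on both of UVD at 4 h, and in SO it had 30366 on both arrays at 4 d and 26106 and 30366 at 4 h. let-7a-5p had 29054 and 30366 in UVD at 4 d, 26530.4 and 29054 in UVD at 4 h, 27832 on both arrays of SO at 4 d, and 23574 and 26106 in SO at 4 h. let-7e-5p, the partner of miR-99b and miR-125a, lay between 5271 and 5604 on all 8 arrays. At 4 d over 4 h within UVD the log2 fold changes were 0.10 for let-7a-5p, 0.15 for let-7c-5p and 0 for let-7e-5p, and within SO they were 0.17, 0.11 and 0.02 in that order of names. Their medians were 0.10 in UVD and 0.11 in SO. The 5 other listed let-7 family arms were let-7b-5p, let-7d-5p, let-7f-5p, let-7i-5p and miR-98-5p. Their medians were 0.12 in UVD, with 4 above 0 and 1 at 0, and 0.09 in SO, with 5 above 0. Higher values at 4 d were thus not particular to the cluster partners. Ratios of the members to these 5 arms were not computed.

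Of 11 listed 3p arms, 9 come from precursors in these clusters, while let-7a-1-3p and let-7c-2-3p belong to the genes outside them and were left out of the counts. Of the 9, 8 were on the array. miR-100-3p, miR-125b-1-3p and let-7e-3p were detected on none of the 8 arrays, and the 5 others were detected on all. At 4 d all 5 had log2 fold changes of UVD over SO below 0, as had 238 of all 422 miRNAs tested (56.4%), with a median of -0.10 beside -0.02. At 4 h, 2 of the 5 were above 0 and 3 below, with a median of -0.004 beside -0.01 over all, and limma called 0 of 5 at either timepoint. miR-125b-2-3p, made from the Mir125b2 precursor, had normalized intensity values of 48.0 and 43.3 in UVD at 4 d and 48.0 and 56.0 in UVD at 4 h. In SO it had 52.3 and 54.5 at 4 d and 59.5 and 55.5 at 4 h. The UVD arrays at 4 d lay below the SO arrays of that timepoint, with a log2 fold change of -0.23 and an SE of 0.10 (limma, adjusted p = 0.745). miR-99a-3p had 93.3 and 89.1 in UVD at 4 d and 94.95 and 107 in SO at 4 d, with a log2 fold change of -0.15 and an SE of 0.08 (limma, adjusted p = 0.756), and at 4 h its log2 fold change of UVD over SO was 0.18 (limma, adjusted p = 0.346). For 4 d over 4 h, 4 of the 5 arms were above 0 in SO and 2 of 5 in UVD, and 0 were called. That of miR-99a-3p was 0.31 in SO (limma, adjusted p = 0.148) and -0.02 in UVD.

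Among miRNAs related by sequence, miR-351-5p, which has the seed of miR-125, was detected on 1 of 8 arrays (replicate 2 of UVD at 4 d) and was not tested. miR-10a-5p, which belongs to the same ancient superfamily as miR-99 and miR-100 and has the seed ACCCUGU, ranged more widely over the arrays than any member. It had 168 and 171 in UVD at 4 d, 199.97 and 205 in UVD at 4 h, 226 and 159 in SO at 4 d, and 491 and 452 in SO at 4 h. Both SO arrays at 4 h lay above all others. Within SO, limma called miR-10a-5p lower at 4 d than at 4 h (log2 fold change -1.31, adjusted p = 0.0386), beside 1.66% of all miRNAs tested. The related miR-10b-5p was called there too (-1.17, limma, adjusted p = 0.0437). Neither was called in the other comparisons.

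In normalized values the members did not all rise and fall together over the arrays. Quantile normalization removes array-wide effects, and each member took only 4 to 6 distinct values, so a shared pattern could be missed. Pearson's r between pairs of members over the 8 arrays ran from -0.71 (miR-100-5p and miR-125b-5p) to 0.56 (miR-99b-5p and miR-125a-5p), as a description of log2 values that share arrays and normalization. The miRNA most like each member among 417 others was miR-219a-2-3p for miR-99a-5p (r = 0.88), miR-34c-3p for miR-99b-5p (r = 0.91), miR-22-5p for miR-100-5p (r = 0.91), miR-6216 for miR-125a-5p (r = 0.92) and miR-370-3p for miR-125b-5p (r = 0.95), each over 8 arrays. With the 2 next most similar miRNAs each, r went down to 0.78 for miR-99a-5p and to between 0.86 and 0.90 for the others. No let-7 miRNA was among these 15, but the listed let-7 5p arms, 3 partners and 5 others, were few among the 417. The r values are the highest of 417 for each member and are not a test.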

How the data were processed

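The authors deposited scanner intensity values and total gene signals read with Agilent Feature Extraction 10.7.3.1, and normalized intensity values that the authors had quantile normalized in GeneSpring GX. Their methods do not name the signal normalized, and name another scanner model than the file headers. The labels and the paper differ slightly in the ethanol concentration. Groups and replicates were taken from the sample titles, since replicate numbers in another label follow the timepoint.

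Total gene signals of the 8 arrays were quantile normalized, values under 1 were set to 1, and log2 values were fitted by lmFit and eBayes (limma 3.58.1, R 4.3.3) with 4 group means, with Benjamini-Hochberg adjustment over 422 miRNAs and a threshold of 0.05. The miRNAs named were the 5 members, listed relatives and cell type markers, and the 3 miRNAs most correlated with each member. Members and lists were chosen with earlier results of these data known, and the ratios within arrays, and their permutation within groups or timepoints, were added after values had been seen. Alternatives were other scalings, signals, filters, floors (10 in place of 1), variance models, a block for the replicate number, the methods' t-test, and fits lacking 1 array. The number of arrays limits the precision. Coordinates were not given, because the array headers name another genome build than the annotation.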

Additional observations from a re-analysis of the deposited data

How the results depend on the processing

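Of the 26 alternatives tried, 23 to 26 applied to each comparison; 0 of 5 members were called in any of these fits, and the smallest adjusted p of a member was 0.0823. The methods' t-test, run in the 4 comparisons of a pair of groups, called 0 of 20 values after adjustment, and 1 passed its p threshold but not the fold threshold beside it. Of 740 recomputed log2 fold changes, 674 kept their sign or came to 0, and 49 values that had been within 1 SE of 0 changed sign. The other 17 turned their sign, all through scaling. With no scaling between arrays, UVD over SO at 4 d was 0.13 for miR-99a-5p and 0.094 for miR-125b-5p, UVD over SO at both timepoints was 0.010 for miR-125b-5p, 4 d over 4 h in UVD was 0.30 for miR-99a-5p and 0.20 for miR-125b-5p, 4 d over 4 h in SO was 0.030 for miR-125b-5p, and the difference of time changes was 0.18 for miR-99a-5p. With the 75th percentile of the miRNAs detected on all arrays, 4 d over 4 h in UVD was -0.033 for miR-99b-5p and -0.052 for miR-125a-5p, and miR-125b-5p was 0.11 for 4 d over 4 h in SO and 0.035 for UVD over SO at both timepoints. With the 75th percentile of all miRNAs and with the median, 4 d over 4 h in UVD was 0.047 and 0.063 for miR-99a-5p, and miR-125b-5p was 0.22 and 0.21 for 4 d over 4 h in SO and 0.053 and 0.059 for UVD over SO at both timepoints. The median of all miRNAs tested moved by up to 0.30 from its reported value under these scalings, and the cause was not tested.

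Deviations of same-numbered arrays from their group means correlated between -0.26 and 0.19. They were taken after quantile normalization, which removes array-wide effects, so they cannot decide whether the numbers pair the samples. With the replicate number as a block, 0 of 5 members were called in each comparison, and the calls over all miRNAs were 2 in place of 7 for 4 d over 4 h in SO. A crossed pairing, chosen after seeing the data and fitted on only the groups compared, gave 0 calls for UVD over SO at 4 h and for 4 d over 4 h in UVD; the same restriction without a block gave 9 and 0. Over all alternatives the calls among all miRNAs lay between 0 and 19 for 4 d over 4 h in SO (7 as reported), 0 and 10 for UVD over SO at 4 h (2), 0 and 5 for UVD over SO at 4 d (0), 0 and 11 for 4 d over 4 h in UVD (0), 0 and 7 over both timepoints (0) and 0 and 7 for the difference (1). Without replicate 1 of UVD at 4 h, 4 d over 4 h in UVD had 11 calls, and without replicate 1 of UVD at 4 d it had 10. The planned normexp correction of mean spot signals could not be fitted, as the columns used here do not include them.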
